A study of Mus musculus with 20 samples.

Results

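Messenger RNA of 10 genes that link the electrical excitation of a muscle fibre to calcium release was followed in C2C12 myotubes, muscle fibre-like cells grown from a mouse myoblast line. The genes were chosen by name: Ryr1, Cacna1s, Cacnb1, Stac3, Jph1, Jph2, Casq1, Casq2, Atp2a1 and Trdn. All 10 were found among the 26722 genes of the count table, and all 10 were among the 14605 genes that passed a filter on low counts. The study comprised 20 total RNA libraries, 4 for each of 5 treatments that lasted 16 h after 5 days of differentiation in low serum. Control myotubes received 7.7 nM of b12, a negative control antibody of the hIgG4 type. In the group called bivalent 13-3B5, b12 was replaced at the same dose by an activating antibody (13-3B5 hIgG4) against MuSK, the muscle receptor kinase through which nerve-derived agrin acts. In the group called agrin, neural agrin (0.1 nM) was added to the b12 dose of the control. The remaining groups received the same dose of agrin with 7.7 nM of a monovalent MuSK antibody that the labels call inhibiting, either 13-3B5xb12 or 11-3F6xb12. Every culture thus carried an antibody, and all came from a single cell line without nerve. The labels number the libraries of each treatment 1 to 4 and call them biological replicates, but do not say what a shared number stands for, so that p-values measure the spread between these samples.

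In skeletal muscle, an action potential runs down the transverse tubules and moves the voltage sensor, the L-type calcium channel of the tubule membrane. The sensor opens the ryanodine receptor of the sarcoplasmic reticulum at the triad, where junctophilins hold the tubule and the store together. Calcium held in the store by calsequestrin flows into the cytosol, and calcium pumps of the SERCA family return it. Skeletal and cardiac muscle use related genes for several of these steps, and cultured myotubes express members of both sets.

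The regions around the transcription starts of some members are shown. They were picked because their RNA varied differently across the libraries: the skeletal and cardiac forms of calsequestrin, the skeletal pump and the voltage sensor. RefSeq windows (GRCm38.p6) of 300 bases, from 250 before to 50 after an annotated start, were found for 7 of the 10 genes, and those of Casq1 (chr1:172219846-172220145, minus strand), Casq2 (chr3:102086165-102086464, plus strand), Atp2a1 (chr7:126463024-126463323, minus strand) and Cacna1s (chr1:136052561-136052860, plus strand) read as follows, 5′ to 3′ on the gene's strand, with capitals for the E-box CAGCTG, which reads the same on both strands, or for the MEF2 motif.
Casq1: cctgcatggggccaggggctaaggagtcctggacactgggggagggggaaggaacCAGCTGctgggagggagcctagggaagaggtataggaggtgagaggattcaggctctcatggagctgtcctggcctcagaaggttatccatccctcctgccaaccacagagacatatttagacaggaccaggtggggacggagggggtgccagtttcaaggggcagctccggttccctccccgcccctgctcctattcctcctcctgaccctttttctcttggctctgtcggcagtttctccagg
Casq2: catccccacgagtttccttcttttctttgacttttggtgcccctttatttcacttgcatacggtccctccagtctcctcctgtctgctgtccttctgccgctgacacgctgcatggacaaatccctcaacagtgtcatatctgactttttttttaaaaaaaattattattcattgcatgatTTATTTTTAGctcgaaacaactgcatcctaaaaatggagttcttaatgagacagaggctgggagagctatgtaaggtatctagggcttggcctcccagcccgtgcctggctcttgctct
Atp2a1: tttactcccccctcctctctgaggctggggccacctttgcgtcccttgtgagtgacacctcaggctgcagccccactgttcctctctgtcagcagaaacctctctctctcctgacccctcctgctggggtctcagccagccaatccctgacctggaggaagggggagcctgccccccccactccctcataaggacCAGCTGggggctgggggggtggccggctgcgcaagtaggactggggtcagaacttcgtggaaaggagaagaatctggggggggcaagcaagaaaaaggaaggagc
Cacna1s: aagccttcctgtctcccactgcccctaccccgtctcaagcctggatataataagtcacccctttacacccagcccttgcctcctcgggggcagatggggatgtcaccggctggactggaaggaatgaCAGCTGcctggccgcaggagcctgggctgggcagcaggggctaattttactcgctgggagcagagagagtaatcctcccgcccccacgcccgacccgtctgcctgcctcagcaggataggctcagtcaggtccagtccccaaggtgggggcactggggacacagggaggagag
CAGCTG is the form of E-box known to be bound by MyoD and myogenin, and MEF2 factors act with them in muscle. CAGCTG stood in the windows of 4 of the 7 genes (Cacna1s, Jph2, Casq1 and Atp2a1), and 16.4% of all 32544 windows held it. The MEF2 motif, searched on both strands, stood in the window of 1 gene (Casq2), and 3.16% of all windows held it. The 2 motifs did not overlap in the windows shown. Of the windows not shown, those of Jph2 held CAGCTG, and those of Ryr1 and Cacnb1 held neither motif. In the comparison of replicates 3-4 with 1-2 given below, Jph2 was not called, and Ryr1 and Cacnb1 fell. A link between motif and RNA level was not tested. No window was found for Stac3, Jph1 and Trdn. A match describes the letters only and is not evidence of a bound site.

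The libraries held 18424881 to 23343903 counts in genes. Replicates 1-2 and replicates 3-4 stood apart across all genes on the first principal component, which carried 21% of the variance and had negative values in the 10 libraries numbered 1 and 2 and positive values in the 10 numbered 3 and 4. Mitochondrially encoded genes took 30.2 to 39.1% of counts in replicates 1-2 and 27.9 to 32.5% in replicates 3-4. A set of 3 libraries stood apart for other reasons: control replicate 2 and agrin with 13-3B5xb12 replicate 1 had the steepest gain of long transcripts over short ones (0.11 and 0.13 on the log2 scale per doubling of length), and agrin replicate 3 held liver transcripts (7 markers summing to 12.06 CPM). All 12 myotube markers examined were detected, among them Myog (10297 to 15235 counts), Acta1 (41821 to 55874) and Ttn (72036 to 133995). Levels below are normalised read counts in CPM, the usual depth-scaled unit, after TMM scaling to the bulk of genes, and levels compared between genes are further divided by exon length (RPKM).

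Per length, the calcium buffer of cardiac type was the most abundant of the 10. Casq2, the cardiac calsequestrin, stood at 470 RPKM ± 28.3 (SD, n = 20), above Atp2a1, the fast skeletal calcium pump SERCA1, at 45.4 ± 12.7 RPKM. Jph2, the junctophilin shared with heart, followed at 33.0 ± 2.38 RPKM and Casq1, the skeletal calsequestrin, at 28.5 ± 7.96 RPKM. Jph2 exceeded Casq1 in 15 of 20 libraries, so these neighbours were not separated beyond their spread. Cacnb1, the beta subunit of the voltage sensor, had 22.6 ± 2.2 RPKM, Cacna1s, its pore-forming subunit, 18.0 ± 2.83 RPKM, and Jph1, the skeletal junctophilin, 12.6 ± 1.95 RPKM. Casq1 exceeded Cacnb1 in 17 of 20 libraries, whereas Cacnb1 exceeded Cacna1s, and Cacna1s exceeded Jph1, in all 20. The lowest 3 genes overlapped: Stac3, an adaptor needed for the sensor to reach and act at the triad, had 7.87 ± 1.07 RPKM, Ryr1, the release channel, 7.21 ± 1.45 RPKM, and Trdn, encoding triadin, which ties calsequestrin to the release channel, 6.51 ± 1.8 RPKM. Stac3 exceeded Ryr1 in 16 of 20 libraries and Ryr1 exceeded Trdn in 13. Lengths were those of all annotated exons joined, 21838 bases for Ryr1 and 9352 for Trdn, and the values fall where the transcript made is shorter than that.

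**Figure D1:**
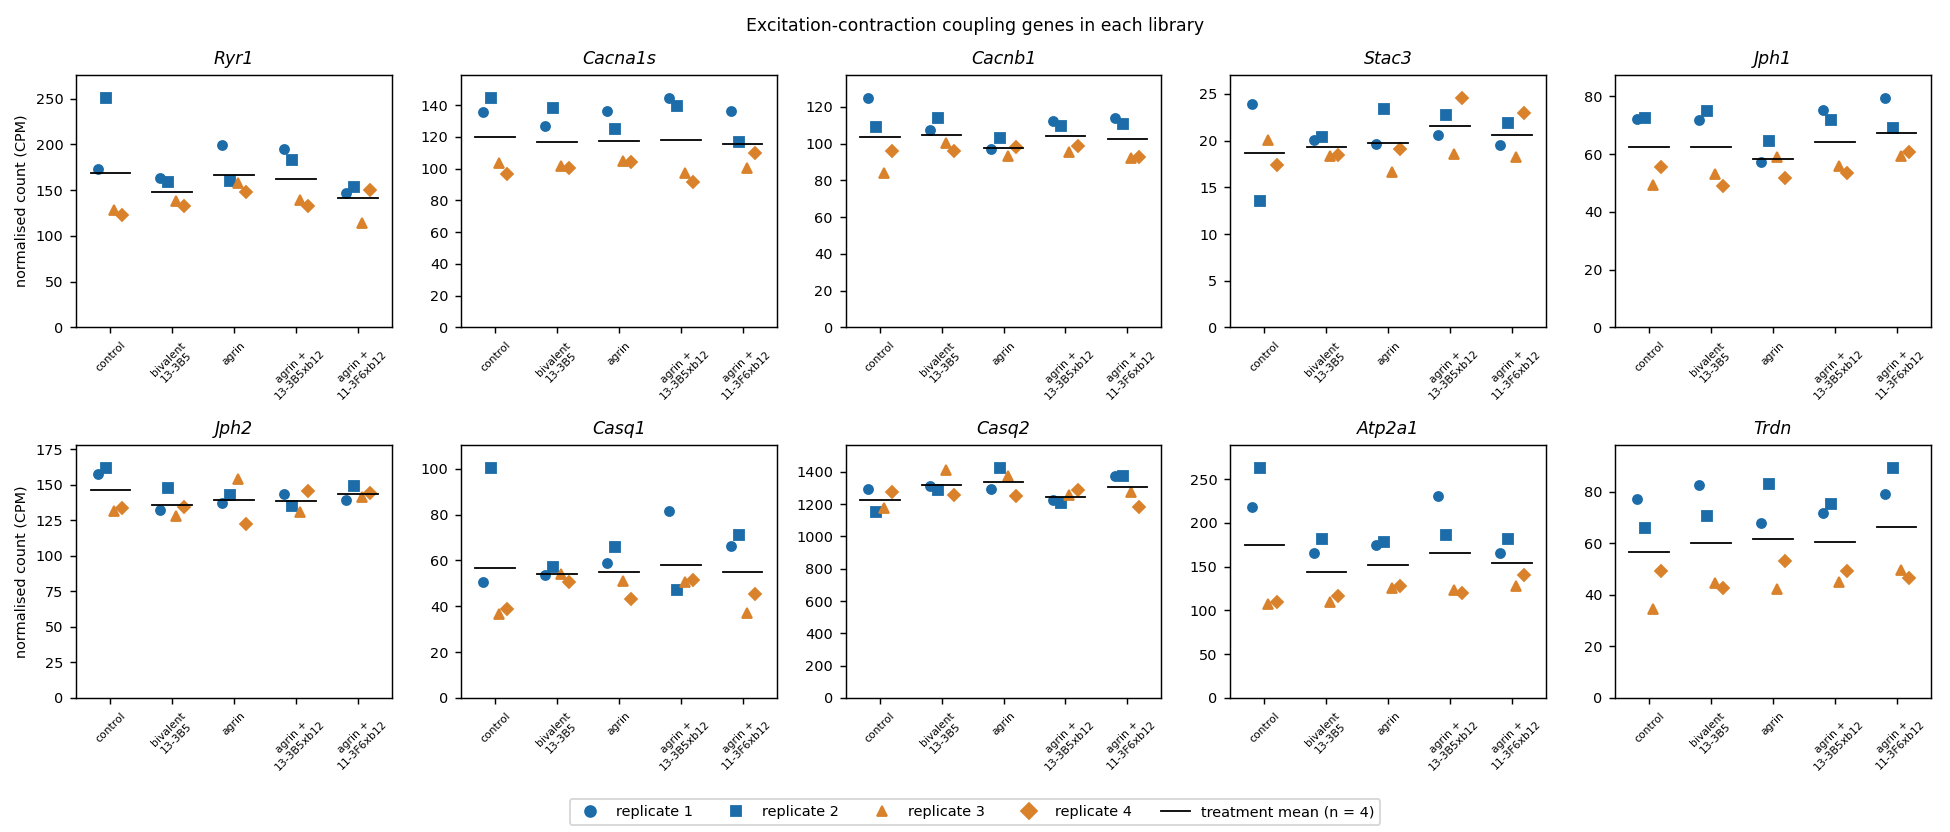
Normalised level of each of the 10 genes in each of the 20 libraries (CPM, linear axes from 0), by treatment. Blue marks are replicates 1-2, orange marks replicates 3-4, and lines are treatment means (n = 4). For Trdn, Atp2a1 and Cacna1s the marks of replicates 1-2 lie above those of replicates 3-4 throughout, whereas those of Casq2 (1149 to 1424 CPM) are mixed. The share of all genes with such a separation was not counted.

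The first question was whether activation of MuSK, by agrin or by bivalent antibody, or its inhibition with monovalent antibody, changed these genes. No change was detected. In each of 8 comparisons between treatments (agrin, bivalent 13-3B5 and each monovalent antibody with agrin against control; bivalent 13-3B5 and each monovalent antibody against agrin; and the monovalent antibodies against each other), 0 of the 10 genes were called at a Benjamini-Hochberg adjusted p under 0.05 by edgeR's quasi-likelihood F-test, and 0 of 14605 genes were called in all (0%). At an unadjusted p under 0.05 the count of the 10 genes was again 0, against 349 to 617 of all genes. These fits had no term for the split between replicates seen on the first principal component. That split carried from 1.71% (Casq2) to 86% (Cacna1s) of a gene's variance, so the 0 is a weak test for genes that follow it. With the replicate number as a block, 1 of the 10 reached the unadjusted threshold in agrin with 11-3F6xb12 against agrin, and 1 against control. In the other comparisons 0 did so, and 0 passed adjustment in any. A test of any difference among the 5 treatments also called 0 of the 10 and 0 of all genes, with unadjusted p from 0.342 (Casq2) to 0.998 (Cacna1s). DESeq2 called 0 of the 10 genes as well, and 2 genes of the whole table between the monovalent antibodies.

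Of the members of the voltage sensor, Cacna1s had 120.1 ± 23.8 CPM in control (SD, n = 4, as for all values by treatment), 116.8 ± 18.9 with bivalent 13-3B5, 117.6 ± 15.6 with agrin, 118.2 ± 27.8 after 13-3B5xb12 in the presence of agrin, and 115.8 ± 15 after 11-3F6xb12 in its presence. Cacnb1 ranged over treatments from 97.89 ± 4.09 CPM (agrin) to 104.5 ± 8.01 CPM (bivalent 13-3B5), and Stac3 from 18.71 ± 4.37 CPM (control) to 21.61 ± 2.63 CPM (agrin with 13-3B5xb12). In each of these 3 genes the treatment means lay closer together than the libraries of the control. For the release channel Ryr1, means ran from 141 ± 18.4 CPM (agrin with 11-3F6xb12) to 169.2 ± 59.2 CPM (control). Among the junctophilins, Jph1 ran from 58.14 ± 5.35 CPM (agrin) to 67.26 ± 9.27 CPM (agrin with 11-3F6xb12) and Jph2 from 135.6 ± 8.35 CPM (bivalent 13-3B5) to 146.1 ± 15.9 CPM (control). Within the store, Casq1 ran from 53.86 ± 2.58 CPM (bivalent 13-3B5) to 57.81 ± 16.1 CPM (agrin with 13-3B5xb12), and Trdn from 56.63 ± 18.7 CPM (control) to 66.08 ± 21.3 CPM (agrin with 11-3F6xb12). The order of treatments differed from gene to gene.

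Casq2 and Atp2a1 gave the extremes of the agrin comparison. Casq2 was at 1295, 1149, 1177 and 1278 CPM in control replicates 1 to 4 and at 1294, 1424, 1373 and 1250 CPM in the agrin replicates. The groups overlapped, and the log2 fold change, agrin over control, was 0.13 (SE 0.0701, unadjusted p 0.0859, edgeR adjusted p 1), the smallest p of the 10 genes in the 8 comparisons. Atp2a1 was at 217.9, 262.8, 107.7 and 109.6 CPM in control and at 175.2, 178.7, 126.2 and 128.1 CPM with agrin. The 2 lowest and the 2 highest of these 8 libraries were all controls, and the log2 fold change of -0.20 (SE 0.299) was smaller than its error. That error includes the split between the replicate sets, which carried 79.9% of the variance of Atp2a1. With the replicate set as a term, the log2 fold change stayed negative and exceeded its smaller error. The same held for Atp2a1 in bivalent 13-3B5 over control, and neither was called. Without the 3 libraries that stood apart, the log2 fold change of Atp2a1, agrin over control, was 0.15. Across the 10 genes, log2 fold changes ran from -0.20 to 0.13 with a median of -0.04 for agrin over control, where the median of all genes was 0.00, and from -0.28 (Atp2a1) to 0.11 (Casq2) for bivalent 13-3B5 over control, with a median of -0.02.

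All antibodies were given at 7.7 nM. Bivalent 13-3B5 carries its MuSK binding site on both arms, and 13-3B5xb12 pairs it with an arm of b12. These were given without and with agrin respectively, so they were not compared with each other. Each antibody was set against b12 under the same agrin condition, and the monovalent antibodies against each other. In bivalent 13-3B5 against agrin, and in each monovalent antibody with agrin against control, antibody and agrin changed together. Their parts cannot be told apart there. Between the monovalent antibodies, both given with agrin, log2 fold changes of the 10 genes, 11-3F6xb12 over 13-3B5xb12, ran from -0.20 (Ryr1; 95% interval -0.62 to 0.22 on 15 degrees of freedom) to 0.13 (Trdn; -0.54 to 0.81), and the lowest adjusted p of the 10 was 0.992. No difference was detected, which does not show that they act alike. These intervals include the spread between replicates 1-2 and 3-4: with the replicate set as a term, the values were -0.18 (SE 0.124) for Ryr1 and 0.11 (SE 0.0942) for Trdn, against SEs of 0.197 and 0.315 without it, and neither was called (adjusted p 0.841 and 0.87). Against agrin with b12, they ran from -0.10 (Casq2) to 0.14 (Jph1) for 13-3B5xb12 and from -0.24 (Ryr1) to 0.21 (Jph1) for 11-3F6xb12. Several of the comparisons share the control or agrin libraries. With the replicate number as a block, 0 of the 10 genes were called in any comparison, and 2, 3 and 5 genes of the whole table were called when 11-3F6xb12 plus agrin was set against agrin, control and 13-3B5xb12 plus agrin respectively. In counts simulated for the agrin comparison, 58% of genes changed 1.5-fold and 72% of those changed 2-fold were recovered. The simulated counts held no difference between replicate sets, and their spread was estimated with that difference removed. Recovery in the main fits can therefore be lower for genes that differ between the sets.

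**Figure D2:**
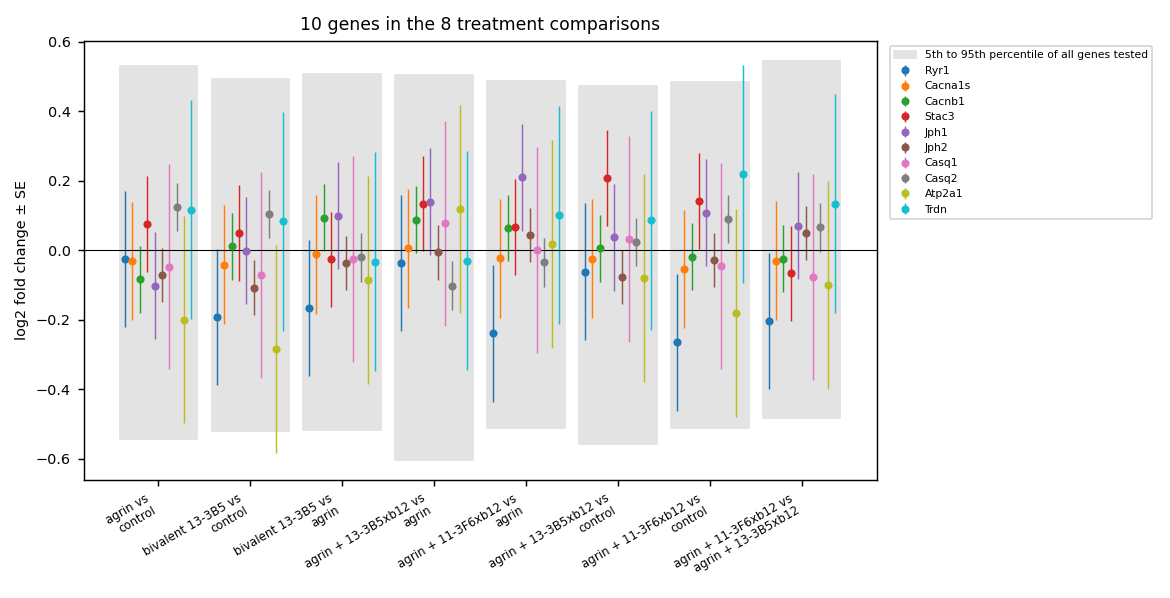
Log2 fold change of each of the 10 genes in the 8 comparisons between treatments, with standard errors from edgeR and, in grey, the 5th to 95th percentile of all genes tested. All values lie between -0.28 and 0.22, and none passed an adjusted p of 0.05.

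The second question was how the genes differed between replicates 3-4 and replicates 1-2, with treatment as a covariate. Of the 10 genes, 7 fell in replicates 3-4 and 0 rose, by edgeR's quasi-likelihood test with Benjamini-Hochberg adjustment. Of all 14605 genes, 7.13% fell and 5.93% rose. The fall was found for the voltage sensor subunits, the release channel, the skeletal junctophilin, the skeletal calsequestrin, the fast calcium pump and triadin, and it was not called for Stac3, Jph2 and Casq2. The median log2 fold change of the 10 was -0.38, where all genes had a median of 0.01 and a range from the 5th to the 95th percentile of -0.58 to 0.43. Because this split had been seen in these libraries beforehand, the test measures its size in each gene and gives no independent evidence for it. If libraries of the same number share a preparation, p-values over 20 libraries are too small. In RNA from whole cultures, fewer myotubes and less RNA per myotube cannot be told apart.

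Triadin and the pump changed most. Trdn ranged from 65.93 to 89.1 CPM with a median of 76.14 in replicates 1-2, and from 34.31 to 53.25 with a median of 45.64 in replicates 3-4. The ranges did not overlap, and the level was 1.67-fold higher in replicates 1-2 (log2 fold change, replicates 3-4 over 1-2, -0.74, adjusted p 2.6e-11, SE 0.0599). Atp2a1 ranged from 165.9 to 262.8 CPM (median 181.7) in replicates 1-2 and from 107.7 to 140.2 CPM (median 122) in replicates 3-4. It too had no overlap, with a log2 fold change of -0.68 (adjusted p 1.99e-06, SE 0.075), or 1.6-fold. How many of all genes had ranges without overlap was not counted. Both genes fell in 5 of 5 treatments and were called in the contrast within each treatment (2 libraries against 2, with the spread taken from all 20), where the log2 fold change lay between -0.81 and -0.64 for Trdn and between -1.15 (control) and -0.38 (agrin with 11-3F6xb12) for Atp2a1.

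Casq1, the skeletal calsequestrin, ranged from 47.28 to 100.3 CPM (median 62.4) in replicates 1-2 and from 36.81 to 53.87 CPM (median 47.92) in replicates 3-4. The groups overlapped, and the log2 fold change was -0.51 (adjusted p 0.0242, SE 0.14). Casq1 was called within 0 of 5 treatments. The highest values were control replicate 2 (100.3 CPM) and agrin with 13-3B5xb12 replicate 1 (81.76 CPM). The call was lost without the libraries numbered 1, 3 or 4 (adjusted p 0.0802, 0.16 and 0.212), with log2 fold changes of -0.57, -0.50 and -0.50 that were about as large as with all libraries and standard errors of 0.176 to 0.207. Without the 3 libraries that stood apart, the log2 fold change of Casq1 was -0.35, with an adjusted p of 0.00765. Casq2, by contrast, had a median of 1294 CPM (1149 to 1424) in replicates 1-2 and 1266 CPM (1177 to 1412) in replicates 3-4. Its log2 fold change of -0.02 (adjusted p 0.812, SE 0.0391) was negative in 2 of 5 treatments and positive in 3.

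In the voltage sensor, Cacna1s ranged from 116.5 to 144.8 CPM (median 136) in replicates 1-2 and from 91.44 to 110 CPM (median 101) in replicates 3-4, without overlap. Its log2 fold change was -0.41 (adjusted p 1.09e-08, SE 0.0439), with a fall in 5 of 5 treatments. Within single treatments Cacna1s was called in 3 of 5, but not with agrin or with agrin and 11-3F6xb12 (edgeR adjusted p 0.0843 and 0.204). Cacnb1 changed less, from a median of 110.2 CPM (97.29 to 125.1) to 95.68 CPM (84.16 to 100.5), a log2 fold change of -0.22 (adjusted p 0.000331, SE 0.0428). Within single treatments it was called in control only (edgeR adjusted p 0.0196). The adaptor Stac3 stood at a median of 20.5 CPM (13.52 to 23.89) in replicates 1-2 and 18.52 CPM (16.62 to 24.62) in replicates 3-4, and its log2 fold change of -0.08 (adjusted p 0.623, SE 0.0839) did not pass the test.

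The release channel Ryr1 ranged from 147.2 to 251.3 CPM (median 168.3) in replicates 1-2 and from 113.7 to 158.2 CPM (median 135.3) in replicates 3-4. The ranges overlapped, and the log2 fold change was -0.38 (adjusted p 0.00235, SE 0.0784). It was -0.75 in control, where replicate 2 held the highest value of all, and between -0.48 and -0.19 in the other treatments. Within single treatments Ryr1 was called in control only (edgeR adjusted p 0.00232, and 0.0804 to 0.716 elsewhere). Without the libraries numbered 3 the log2 fold change was -0.36 (SE 0.105) and the adjusted p 0.0536. Of the junctophilins, Jph1 fell from a median of 72.1 CPM (57.21 to 79.58) to 54.4 CPM (49.12 to 60.79), a log2 fold change of -0.37 (adjusted p 1.15e-06, SE 0.0505). It was called within 3 of 5 treatments. Jph2 had medians of 142.8 CPM (132.2 to 161.7) and 134 CPM (122.4 to 153.9), and its log2 fold change of -0.08 (adjusted p 0.262, SE 0.044) did not pass the test.

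**Figure D3:**
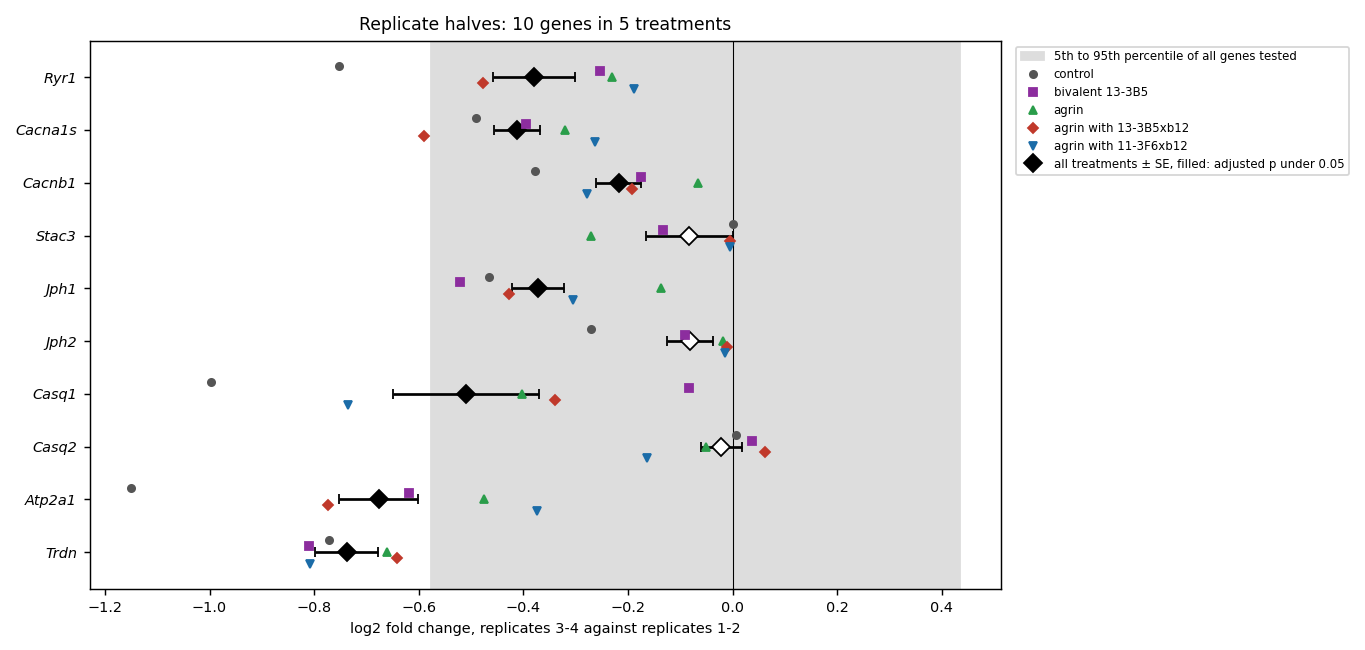
Log2 fold change of each of the 10 genes, replicates 3-4 over replicates 1-2, within each treatment (coloured marks, 2 libraries against 2) and over all treatments (diamonds with standard errors, filled where the edgeR adjusted p is under 0.05). The shaded band spans the 5th to the 95th percentile of all genes tested in the contrast over all treatments. It does not give the spread of the contrasts within treatments. The diamonds of Trdn and Atp2a1 lie outside the band, while the marks of Atp2a1 for agrin and for agrin with 11-3F6xb12 lie inside it, and the diamond of Casq2 lies near 0.

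Other measures moved with the same split. Of the 12 myotube markers, 3 fell (Ckm, Tnnt3 and Neb) and 1 rose (Mymx), and their sum was 14130 to 16820 CPM in replicates 1-2 and 11400 to 15090 CPM in replicates 3-4. Markers of undifferentiated or dividing myoblasts summed to 188.9 to 262.8 CPM and 164.9 to 252.9 CPM, with 2 of 9 lower (Ccnb1 and Id3) and 0 higher. Fibroblast markers, of which 2 of 5 tested fell, summed to 1278 to 1486 CPM and 1259 to 1479 CPM. Cardiac markers, of which 2 of 4 tested fell, summed to 533.8 to 639.6 CPM and 470.5 to 557.1 CPM, with Nppa and Myl7 at no more than 3 counts in any library. Among nerve markers 1 of 2 tested fell (S100b), and of the macrophage list 1 gene was tested and not called. Liver, adipocyte and endothelial markers passed no filter. The myotube and cardiac sums and the mitochondrial share were lower in replicates 3-4 by their medians, as the 7 genes were. Most of the cardiac sum was Tnnt2 (means of 589 and 500.2 CPM). Ttn, the largest part of the myotube sum (means of 5037 and 4208 CPM), was not called (edgeR adjusted p 0.117). The median log2 fold change of the 12 myotube markers was -0.04. The median sums of undifferentiated or dividing myoblasts (from 219 to 179.4 CPM) and of nerve markers (from 3.434 to 1.27 CPM) were lower too. That of the macrophage list was higher (from 0.7401 to 0.9024 CPM). The part of these measures in the fall was not tested. The medians of the fibroblast sum lay close together, at 1370 and 1346 CPM. Without the 3 libraries that stood apart the same count of 7 genes was called, with log2 fold changes of -0.74 for Trdn, -0.60 for Atp2a1 and -0.31 for Ryr1. It was also 7 after removal of each library's trend with transcript length and GC content.

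A change between treatments that itself differed between the replicate sets was looked for in the same 10 genes. Of 80 such tests (edgeR), 15 had an unadjusted p under 0.05 and 0 passed adjustment over all genes. Of all genes, 0% were called in 7 of the 8 comparisons and 0.0137% in that of the monovalent antibodies. The share of all genes at the unadjusted threshold was not counted, and the tests share libraries. The 15 can therefore not be read as an excess. The lowest adjusted p was for Atp2a1 in agrin with 11-3F6xb12 against control, 0.0892 (unadjusted 6.11e-06). That log2 fold change was -0.47 within replicates 1-2 and 0.30 within replicates 3-4. For agrin against control the same gene gave -0.44 and 0.23 (adjusted p 0.671). The high control values in both of these came from replicates 1 (217.9 CPM) and 2 (262.8 CPM) of Atp2a1.

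How much of each gene's variation the replicate sets carried separated the 10 genes further. As shares of the variance of log2 CPM over 20 libraries, the split accounted for 86% in Cacna1s, 85.8% in Trdn, 79.9% in Atp2a1, 72.1% in Jph1 and 64.8% in Cacnb1. It accounted for 51.8% in Ryr1 and 45.8% in Casq1, and for 17% in Jph2, 3.63% in Stac3 and 1.71% in Casq2, where the median over 8794 genes (those whose mean log2 CPM exceeded 3) was 8.82%. Treatment accounted for 0.421% (Cacna1s) to 32.1% (Casq2), against a median of 16.9%. The difference between the 2 numbers inside a set took at most 7.74% (Stac3).

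After treatment means were subtracted, the 45 pairs of the 10 genes had a median Pearson correlation of 0.586 over 20 libraries, with 25 pairs above 0.5 and 5 below 0. Once the mean of each replicate set was subtracted too, the median was 0.116, with 7 pairs above 0.5 and 16 below 0. The libraries share the split, depth and the length trend, and the correlations are a description. Ryr1 and Atp2a1, release channel and pump, correlated at 0.902 before and 0.766 after that step. Ryr1 and Casq2 correlated at -0.242 and -0.576. Control replicate 2, which had the highest Ryr1, Cacna1s, Jph2, Casq1 and Atp2a1 of all libraries, had the lowest Casq2 and Stac3. The genes outside calcium handling whose level followed the mean of the 10 most closely over the 20 libraries, among 8744 candidates, were Col6a1 (a collagen VI chain, r = 0.981), Pfkm (muscle phosphofructokinase, r = 0.977), Pgm5 (r = 0.967), Naalad2 (r = 0.963) and Myom2 (an M-band protein of the sarcomere, r = 0.96). Their log2 fold changes between the replicate sets, from -0.82 (Pgm5) to -0.27 (Myom2), follow from this choice and are a description.

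The balance between related forms was then compared as a ratio of length-scaled levels in each library. On the log2 scale, Casq2 over Casq1 was 3.86 ± 0.368 (SD, n = 10) in replicates 1-2 and 4.32 ± 0.182 in replicates 3-4, or 14.5 and 20 as linear ratios. The difference of 0.46 had p = 0.00129 by an exact two-sided permutation of replicate sets within treatments, 0.00322 after adjustment over 5 ratios. The smallest p this permutation allows is 0.000257. Jph2 over Jph1 went from 1.26 ± 0.149 to 1.55 ± 0.0908, a difference of 0.29 (exact permutation, adjusted p 0.00257), or from 2.4 to 2.93 as linear ratios. The form shared with heart took a larger part of both pairs in replicates 3-4, in 5 of 5 treatments. The ratios reuse the counts and the split given above, where Casq1 and Jph1 fell and Casq2 and Jph2 were not called. They are therefore no independent evidence. If libraries of the same number share a preparation, the permutation p-values too are too small. Atp2a2, which encodes SERCA2 of slow and cardiac muscle, exceeded Atp2a1 by 0.66 ± 0.136 in replicates 1-2 and 0.86 ± 0.138 in replicates 3-4. That difference of 0.20 had an adjusted p of 0.00687 (exact permutation), while Atp2a2 itself also fell (534.7 ± 63.9 to 385.2 ± 34.2 CPM). Ryr3 over Ryr1 was -2.53 ± 0.158 and -2.40 ± 0.214, and its difference of 0.13 did not pass (exact permutation, adjusted p 0.129). Cacna1c, the cardiac counterpart of Cacna1s, had 0 to 6 counts per library, too few for a ratio. Without the libraries numbered 3 or 4, adjusted p (exact permutation) for Casq2 over Casq1 was 0.103 and 0.0823, and without those numbered 2 or 4 that for Atp2a2 over Atp2a1 was 0.0566 and 0.113. Ryr3 over Ryr1 reached 0.0412 without number 4.

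**Figure D4:**
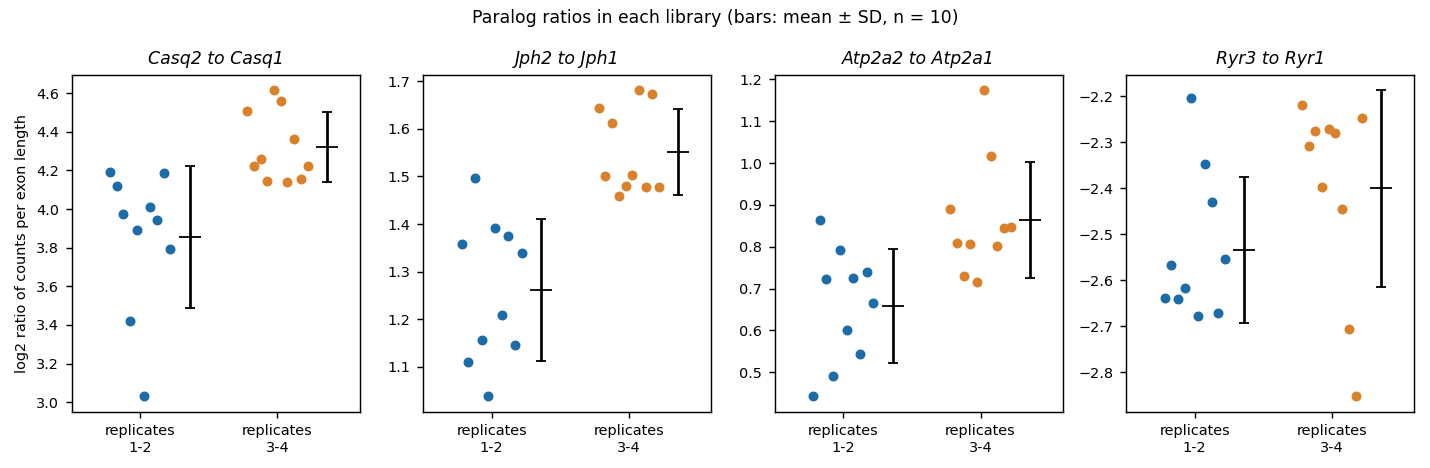
Log2 ratio of length-scaled levels of 4 pairs of related genes in each library, by replicate set, with the mean ± SD of each set (n = 10) on axes that differ between panels and do not start at 0. Casq2 over Casq1 and Jph2 over Jph1 are higher in replicates 3-4 (means 4.32 and 1.55) than in replicates 1-2 (3.86 and 1.26), and Ryr3 over Ryr1 overlaps widely.

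Other genes of calcium handling were read from lists that hold none of the 10. Of 60 listed genes, 50 were tested, and 16 fell and 3 rose in replicates 3-4, with a median log2 fold change of -0.15 against 0.01 for all genes. Over all genes tested 7.13% fell and 5.93% rose, so that the 3 of 50 that rose are near the background and the 16 that fell are above it. That background was not matched for expression level, and the lists were chosen with earlier results of these data known. None was called between treatments. The signed values given in parentheses for these genes are log2 changes, replicates 3-4 over 1-2. Among other subunits and adaptors of the voltage sensor, 2 of 6 fell: Cacna2d1, the alpha2-delta subunit (-0.21, adjusted p 0.000478, SE 0.0419), and Cacng1, the gamma subunit (-0.23, adjusted p 0.00016, SE 0.0425). Of 10 release channels and binding proteins 0 fell and 1 rose, Itpr2, a receptor for inositol trisphosphate, from 39.2 ± 5.23 to 51.91 ± 3.97 CPM (log2 fold change 0.41, adjusted p 3.35e-06). Ryr3 was not called (-0.24, adjusted p 0.0586), and Ryr2, the cardiac release channel, had at most 3 counts in any library.

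Pumps and their regulators moved in both directions. Of 7 tested, 4 fell, led by Mrln (-1.28, adjusted p 2.66e-07, SE 0.161), which encodes the small SERCA inhibitor myoregulin, and Atp2a2 (-0.47, adjusted p 5.61e-07, SE 0.0559). Mrln stood at 6.457 ± 1.85 CPM in replicates 1-2 and 2.63 ± 0.769 CPM in replicates 3-4. The 1 that rose was Atp2a3, a SERCA of non-muscle cells, at 0.5426 ± 0.377 and 1.355 ± 0.473 CPM (0 to 45 counts per library). Sarcolipin (Sln) and phospholamban (Pln), the other classical inhibitors, had at most 2 and 5 counts.

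In the list of the store lumen and store membrane, the RNA of 5 of 9 genes fell and that of 0 rose. The 5 were Tmem38a, Tmem38b, Hrc, Jsrp1 and Mcu, and the last encodes the pore of the mitochondrial calcium uniporter, which is not a protein of the sarcoplasmic reticulum. Tmem38a and Tmem38b, potassium-permeable channels of the store membrane, both fell (-0.31, adjusted p 1.42e-07, and -0.40, adjusted p 1.64e-06). In the list of the triad and membrane system 3 of 9 fell, among them Bin1, which shapes transverse tubules (-0.21, adjusted p 0.000204, SE 0.0387). For store-operated calcium entry the sensors of store calcium changed in opposite directions: Stim1 fell (-0.31, adjusted p 0.00284) and Stim2 rose (0.19, adjusted p 0.00367), and the Orai channels were not called. Of 4 genes of membrane excitability and cytosolic buffering 1 fell, Scn4a, the muscle sodium channel, from 24.47 ± 5.79 to 16.59 ± 2.35 CPM (-0.55, adjusted p 0.000108).

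**Figure D5:**
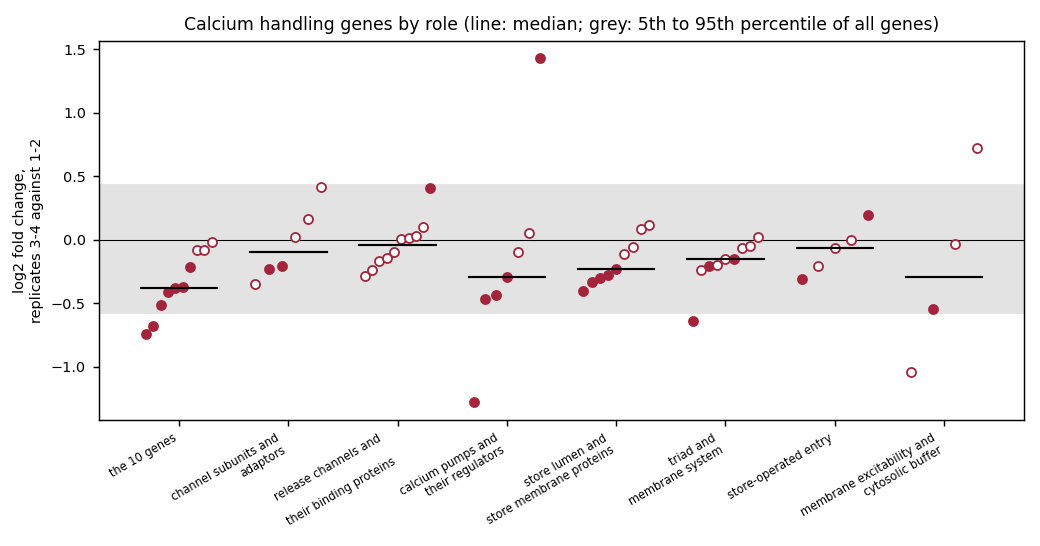
Log2 fold change, replicates 3-4 over replicates 1-2, of the 10 genes and of the other calcium-handling genes tested, by list, with the median of each list as a line and the 5th to 95th percentile of all genes in grey. Filled marks passed an edgeR adjusted p of 0.05: 7 of the 10 genes fell, and 16 of the 50 others fell and 3 rose.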

How the data were processed

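Total RNA of C2C12 myotubes was sequenced as paired 150-base reads after ribosomal RNA removal with a stranded kit, per the labels' protocols. The deposited table holds whole-number gene counts, not normalised. GRCm38, Trim Galore 0.6.6, cutadapt 2.10, STAR 2.7.6a, HTSeq 0.12.4 and DESeq2 1.32.0 are named in the submitters' processing notes. The strand setting and annotation release are not given in the sources used here, and without strand reads of overlapping antisense genes cannot be told apart. Genes were filtered with filterByExpr (minimum count 10), scaled by TMM and tested with edgeR 4.0.16 (robust quasi-likelihood F-test, R 4.3.3, Benjamini-Hochberg adjustment over 14605 genes). Treatments were fitted together without a block, and replicates 3-4 against 1-2 with treatment as covariate. DESeq2 1.42.0 served as alternative. Lengths came from GENCODE M21 (26667 of 26722 identifiers matched), and log2 CPM used a prior count of 2. The 200 changed genes of each of 2 simulated tables gave 66 and 86% recovery at 1.5-fold and 2-fold for the replicate sets. Same-numbered deviations correlated above 0.1 in every pair in 4 of 8 comparisons: bivalent 13-3B5 against control and agrin, and each monovalent antibody against agrin. Their mean correlations there were 0.157 to 0.239. Libraries of the same replicate set with another number had means of 0.107 to 0.228. This rule therefore cannot tell pairing by number from the split between replicates 1-2 and 3-4. No 2 replicates agreed within sampling noise. The genes, lists and tests were chosen with earlier results of these data known. Other genes were named by rule: in each list, up to 2 called genes per direction with the smallest p, the genes of the ratios, and the 5 outside genes most correlated with the mean of the 10. The value of 1 gene that this rule names is not reported here. Alternatives covered scaling, filters, left-out libraries, the block and single treatments, and 2 were added after seeing the data (removal of length and GC trends, and leaving out control replicate 2).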

Additional observations from a re-analysis of the deposited data

Results flagged for a closer look

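In 50 sets of 4 libraries (10 genes in 5 treatments), 2 held a library far from the others by Dixon's criterion (the gap to the nearest library as a share of the range). For independent values from a single normal distribution, chance gives this in about 1 of 20 sets. Each set here joins libraries of replicates 1-2 and 3-4, and genes share libraries, so that rate need not apply. Ryr1 was at 113.7 CPM in agrin with 11-3F6xb12 replicate 3, where the other libraries of that treatment lay at 147.2 to 153.1 CPM. Casq1 was at 81.76 CPM in agrin with 13-3B5xb12 replicate 1, where the others lay at 47.28 to 51.55 CPM.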

How the results depend on the processing

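Of 155 alternative fits of the treatment comparisons, 155 called 0 of the 10 genes, and at most 3 reached an unadjusted p under 0.05. Counts of all genes called were 0 in the main fits. With the replicate block they were 2, 3 and 5 for agrin with 11-3F6xb12 against agrin, control and agrin with 13-3B5xb12, and 2 for any treatment. With the replicate set as a term they were 2, 3 and 10 in the same comparisons. With no filter they were 4 and 2 for agrin and bivalent 13-3B5 against control, 7, 6 and 13 for bivalent 13-3B5, 13-3B5xb12 and 11-3F6xb12 against agrin, 3 and 13 for 13-3B5xb12 and 11-3F6xb12 against control, 27 between the monovalent antibodies and 50 for any treatment. DESeq2 gave 2 between the monovalent antibodies. The causes were not tested. The replicate block changed no call of the 10 genes.

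Uncalled values near 0 changed sign. Without the 3 libraries that stood apart, the log2 fold change of Atp2a1 for agrin against control was 0.149. With 1 library left out it ran from -0.375 to 0.0672, that of Atp2a1 for agrin with 13-3B5xb12 against control from -0.285 to 0.186, Jph1 for bivalent 13-3B5 against agrin from -0.0011 to 0.199, and Trdn between the monovalent antibodies from -0.0432 to 0.271. For replicates 3-4 against 1-2, Casq2 ran from -0.0469 to 0.00241 with 1 number left out. Within single treatments, Stac3 was at 8.13e-05 in control and Casq2 at 0.00648 in control, 0.0374 with bivalent 13-3B5 and 0.0619 with agrin and 13-3B5xb12.

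The 1908 genes called between the replicate sets became 1045 (without number 3) to 1306 with 1 number left out, with 5 to 7 of the 10 genes. As contrasts within control, bivalent 13-3B5, agrin, agrin with 13-3B5xb12 and agrin with 11-3F6xb12, each of 2 libraries against 2 in a joint fit of all 20 (10 residual degrees of freedom), 388, 162, 193, 260 and 215 genes were called. Of the 10 genes, 6, 4, 2, 4 and 2 were called, and of the 50 others 9, 3, 1, 2 and 3. Each such contrast compares fewer libraries than the main one. With 1 number left out, the difference of the log2 ratio ran from 0.4 to 0.527 for Casq2 over Casq1, from 0.132 to 0.278 for Atp2a2 over Atp2a1 and from 0.0288 to 0.241 for Ryr3 over Ryr1. The first was past the threshold in 2 of 4 such fits, the second in 2 and the third in 1. A ratio over coding lengths was not run.

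Stac3 had the fewest counts of the 10 genes (291 to 564 per library). Several other tested genes had fewer, among them Atp2a3 (0 to 45) and Mrln (30 to 198).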
